A study of Mus musculus with 24 samples.

Results

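The 10 genes described here carry the transforming growth factor beta (TGF-beta) and activin signal in the heart: the ligand genes Tgfb1, Tgfb2 and Tgfb3, the activin subunit genes Inhba and Inhbb, the latent TGF-beta binding protein gene Ltbp2, the receptor genes Tgfbr1 and Tgfbr2, the inhibitor gene Smad7 and the connective tissue growth factor gene Ctgf, now also called Ccn2. They were taken by name from a table of 23998 genes, and all 10 were found and passed the filter on low values that left 12980 genes for testing. PolyA RNA of whole hearts was measured in 13 libraries from transgenic mice of CD1 background. Every animal had a transgene of human MYL2, the gene of the regulatory light chain of ventricular myosin, and hearts were taken at 4 months of age. A set of 4 mutant hearts (shRNA replicates 5, 6, 7 and 8) carried the mutated human allele and had received at 3 days of age an adeno-associated virus of serotype 9 (AAV9) that expresses the M7.8L shRNA. Another 3 mutant hearts (replicates 1, 2 and 3) had received at the same age an AAV9 without that shRNA, called control virus. The remaining 3 mutant hearts (replicates 9, 10 and 11) were untreated. A further 3 hearts (replicates 2, 3 and 4) carried the normal human allele and had received control virus, and are called wild type here, although they are transgenic too. The genotype field read RLC-47K L6 in all samples, so that mutant and wild type were told apart by the sample names. The promoter of the transgene and the number of founder lines were not stated in the labels.

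TGF-beta is made as a latent complex, held by binding proteins in the matrix, and once released it brings together a type II and a type I receptor that phosphorylate Smad2 and Smad3. Activins, dimers of inhibin beta subunits, signal to the same Smads through receptors of their own, and Smad7 blocks the type I receptor in a feedback loop. In the heart the pathway is best known for turning fibroblasts into matrix-making myofibroblasts, and Ctgf, a secreted matricellular protein of the CCN family, is a classic target in fibroblasts that cardiomyocytes make as well.

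Values are FPKM, fragments scaled by transcript length and by the number of mapped fragments, so that levels may be compared between genes but the read depth and counting errors are unknown. FPKM totals ran from 580948 to 1701500 per library, and the median log2 shift of a library against the rest ran from -0.54 in untreated mutant replicate 10 to 0.80 in shRNA replicate 8. Differences are therefore given as deposited and, where this changed a call of the 10 genes, with libraries aligned on their medians. shRNA replicate 8 stood apart from the other libraries with that label in most of the values below, and differences of hearts labelled shRNA are given with it and, for called genes, without it. That library was singled out by its values in these same genes, so p-values without it are too small to be taken at face value. The table's row hMyl2 was above 0 only in replicates 5, 6 and 7 of the group labelled shRNA, at 228.8, 419.6 and 317.2 FPKM, and stood at 0 in replicate 8 and in every library of the other 3 groups, although every animal carried the transgene. Whether this row measures the transgene was not tested, and the target of the shRNA is not named in the labels. The shRNA group is therefore called by its label throughout, and every direction drawn from it rests on that label. By Ddx3y, a Y-linked gene, over 5 FPKM, shRNA replicates 5, 6 and 7 were male, as were untreated mutant replicates 9 and 10 and wild-type replicates 2 and 3. shRNA replicate 8, all 3 control-virus mutants, untreated mutant replicate 11 and wild-type replicate 4 were female. Without replicate 8, sex and treatment cannot be told apart between hearts labelled shRNA and control-virus mutants.

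Among the ligands, Tgfb2 differed most between the groups. It was 6.09, 8.41, 6.90 and 104 FPKM in shRNA replicates 5, 6, 7 and 8. It was 78.5, 107 and 44.3 FPKM in control-virus mutants 1, 2 and 3, and 119, 99.3 and 73.5 FPKM in untreated mutants 9, 10 and 11, against 8.04, 11.1 and 11.8 FPKM in wild-type hearts 2, 3 and 4. All 6 mutant hearts without shRNA lay above all wild-type hearts, 3 hearts labelled shRNA lay in or below the wild-type range, and shRNA replicate 8 lay among the mutants without shRNA. Differences were tested on log2(FPKM + 1) with limma in one fit over the 4 groups, adjusted by Benjamini-Hochberg over all genes tested and called at an adjusted p under 0.05. Tgfb2 was higher by 2.71 ± 0.69 (SE) on the log2 scale in control-virus mutants than in wild type, with a limma adjusted p of 0.0218, and by 3.11 ± 0.69 in untreated mutants, with an adjusted p of 0.00514. It fell in hearts labelled shRNA by 2.25 ± 0.64 against control-virus mutants (limma adjusted p = 0.0137) and by 2.65 ± 0.64 against untreated mutants (adjusted p = 0.00287). Without shRNA replicate 8 these differences were -3.18 ± 0.27 and -3.58 ± 0.27 on the log2 scale (limma adjusted p = 3.17e-09 and 3.41e-10). In a whole heart, fewer cells of a type and less RNA per cell cannot be told apart.

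**Figure D1:**
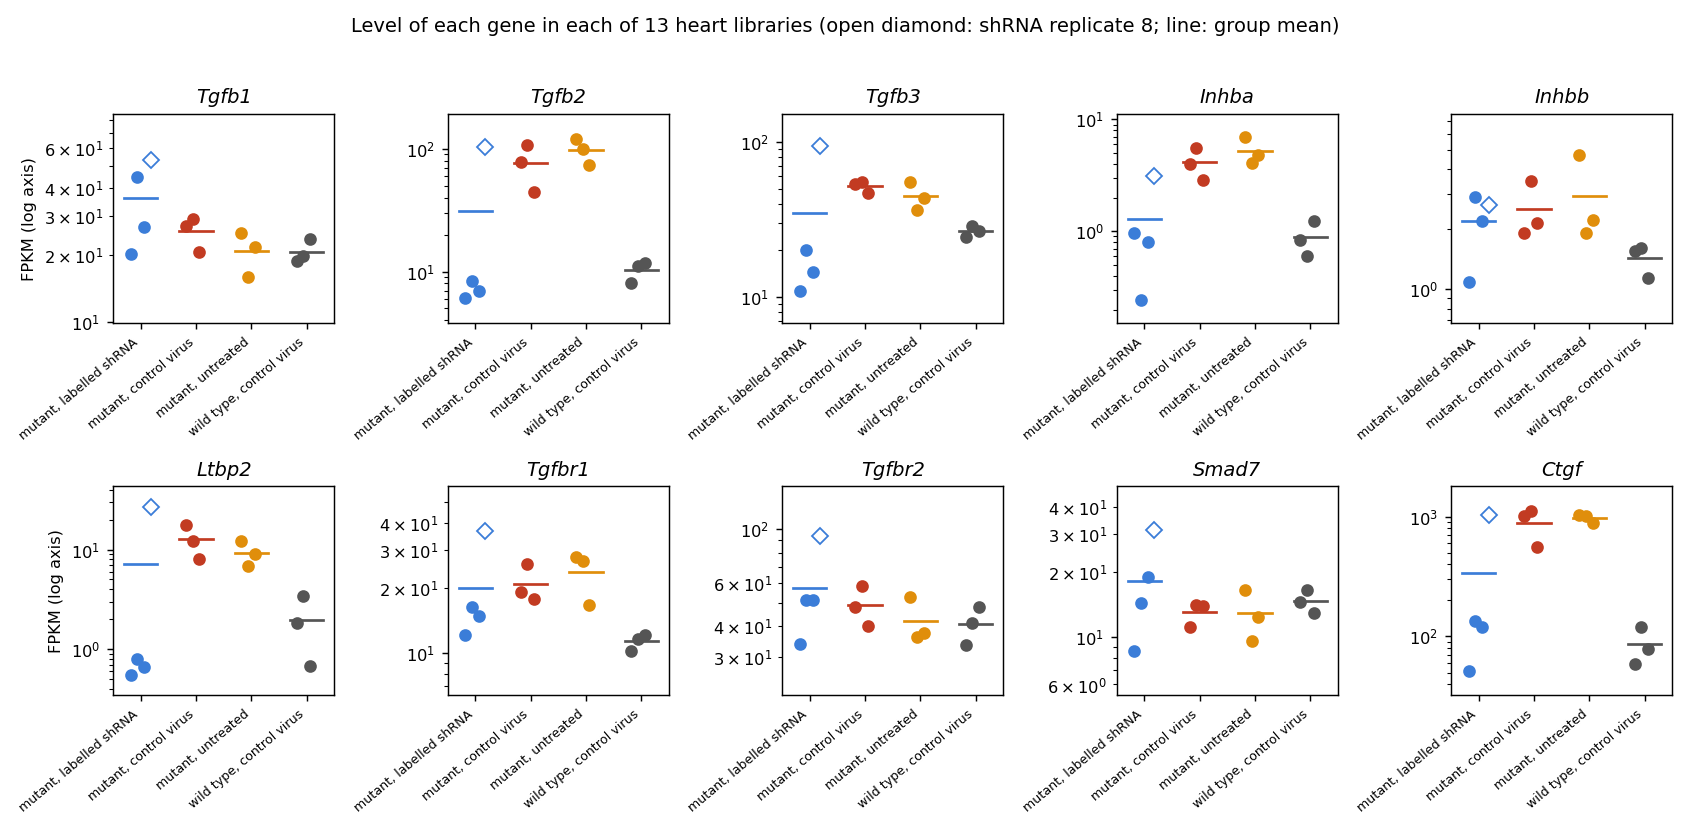
FPKM of each of the 10 genes on a log axis in each of the 13 heart libraries, with 1 point per library, a line at the group mean and an open diamond for shRNA replicate 8. Tgfb2, Inhba, Ltbp2 and Ctgf were higher in all 6 mutant hearts without shRNA than in all 3 wild-type hearts, and shRNA replicates 5, 6 and 7 lay near the wild-type hearts. Tgfb3, Inhbb and Tgfbr1 were also higher in these 6 hearts than in all wild-type hearts, and the share of all genes that did so was not counted.

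Promoters are shown for 3 genes that differed in the same direction between these groups, Tgfb2, Inhba and Ltbp2, and for Tgfb1, which passed in no comparison as deposited. They are the 250 bases before the RefSeq start site in GRCm38.p6, a later build than the mm9 of the deposited table, written 5′ to 3′ on the strand of the gene, and 7 of the 10 genes were matched. Capitals mark a TATA box (TATAAA), an E-box (CACGTG) or a GC box (GGGCGG or its reverse CCGCCC).
Tgfb2, chr1:186705990-186706239, minus strand: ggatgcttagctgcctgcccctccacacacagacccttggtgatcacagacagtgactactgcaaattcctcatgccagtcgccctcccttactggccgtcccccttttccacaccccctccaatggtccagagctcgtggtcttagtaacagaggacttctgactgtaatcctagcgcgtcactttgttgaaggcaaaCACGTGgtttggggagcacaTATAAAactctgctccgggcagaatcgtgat
Inhba, chr13:16011601-16011850, plus strand: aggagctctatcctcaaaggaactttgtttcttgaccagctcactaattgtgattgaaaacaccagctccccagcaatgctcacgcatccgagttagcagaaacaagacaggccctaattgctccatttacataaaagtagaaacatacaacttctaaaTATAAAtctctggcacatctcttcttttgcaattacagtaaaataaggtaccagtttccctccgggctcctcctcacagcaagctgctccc
Ltbp2, chr12:84876492-84876741, minus strand: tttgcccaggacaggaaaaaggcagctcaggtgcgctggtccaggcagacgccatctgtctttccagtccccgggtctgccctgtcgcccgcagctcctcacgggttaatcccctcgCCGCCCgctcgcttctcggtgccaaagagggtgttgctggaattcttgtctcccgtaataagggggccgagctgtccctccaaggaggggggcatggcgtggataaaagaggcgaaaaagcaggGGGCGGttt
Tgfb1, chr7:25686752-25687001, plus strand: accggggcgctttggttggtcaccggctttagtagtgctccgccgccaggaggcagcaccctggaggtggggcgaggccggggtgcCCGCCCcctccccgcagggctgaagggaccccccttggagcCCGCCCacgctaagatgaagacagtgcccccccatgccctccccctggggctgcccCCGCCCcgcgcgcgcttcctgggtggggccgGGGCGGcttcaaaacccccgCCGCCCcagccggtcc
The Tgfb2 window holds a TATA box 31 to 26 bases before the start and an E-box 51 to 46 bases before it, while the Inhba window holds a TATA box 91 to 86 bases before the start. The Tgfb1 window has 5 GC boxes and 75.2% G and C, and the Ltbp2 window has 2 GC boxes and 61.6% G and C. G and C make up 53.6% of the Tgfb2 and 43.2% of the Inhba window, and 53.2% over 32851 promoters. On either strand of windows of this length, the TATA box letters are in 12.4% of these promoters, the E-box in 6.02% and the GC box in 32.7%. An AP-1 site (TGANTCA), a cyclic AMP response element (TGACGTCA), a TEAD site (GGAATG) and a Smad element (GTCTAGAC), held by 6.75%, 1.55%, 12.6% and 0.167% of promoters, were searched on both strands too, and these letters are not in the windows of the 7 genes. Ctgf, Tgfb3 and Smad7 had no matched window, so the search says nothing of them. No searched motif overlaps another in the printed windows.

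Tgfb3, the remaining TGF-beta ligand gene, had a smaller difference in the same direction. It was 10.9, 20.2, 14.4 and 94.6 FPKM in shRNA replicates 5 to 8. It was 53.4, 55.4 and 46.8 FPKM in control-virus mutants and 55.1, 36.4 and 43.4 FPKM in untreated mutants, against 24.6, 28.7 and 26.7 FPKM in wild-type hearts. All mutant hearts without shRNA lay above wild type, and shRNA replicates 5, 6 and 7 lay below it. As deposited and with all libraries Tgfb3 passed in no comparison (log2 difference 0.94 ± 0.50 in control-virus mutants over wild type, limma adjusted p = 0.256). Without shRNA replicate 8 it was higher in control-virus mutants than in wild type at a limma adjusted p of 0.00557 and in untreated mutants (by 0.72 ± 0.24) at 0.0229, and it fell in hearts labelled shRNA by 1.75 ± 0.24 on the log2 scale against control-virus mutants (adjusted p = 3.38e-06). With libraries aligned and all of them kept, Tgfb3 was lower in hearts labelled shRNA than in control-virus mutants (log2 difference -1.59 ± 0.40, limma adjusted p = 0.0211) and than in untreated mutants (-1.60 ± 0.40, adjusted p = 0.0144), and it passed in neither comparison of these mutants with wild type. Replicate 8 enters the wild-type comparisons only through the spread that all 4 groups share.

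Tgfb1, the ligand gene best known from platelets and leukocytes, passed in no comparison as deposited. It was 20.2, 44.4, 26.5 and 53.1 FPKM in hearts labelled shRNA, 27.0, 28.9 and 20.6 FPKM in control-virus mutants and 25.0, 15.9 and 21.6 FPKM in untreated mutants, against 18.7, 19.7 and 23.6 FPKM in wild type. The 4 groups overlapped. Its log2 difference was 0.28 ± 0.31 in control-virus mutants over wild type (limma adjusted p = 0.617). With libraries aligned and replicate 8 left out, that difference was 0.43 and did pass (adjusted p = 0.0316).

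The make-up of TGF-beta ligand mRNA, which does not depend on the scale of a library, differed accordingly. Tgfb2 made up 16.4%, 11.5%, 14.4% and 41.3% of the summed FPKM of Tgfb1, Tgfb2 and Tgfb3 in shRNA replicates 5 to 8. Its share was 49.4%, 55.9% and 39.7% in control-virus mutants and 59.8%, 65.5% and 53.0% in untreated mutants, against 15.7%, 18.7% and 19.0% in wild type. Tgfb2 had the largest share of the 3 ligands in 5 of the 6 mutant hearts without shRNA, and Tgfb3 had it in control-virus mutant 3 and in all 3 wild-type hearts. In shRNA replicates 5, 6 and 7 the largest share was that of Tgfb1, with 54.4%, 60.8% and 55.5%, above the 33.1% to 38.0% of wild-type hearts and the 15.1% to 18.4% of control-virus mutants. Tgfb1 made up 21.1% in shRNA replicate 8. The summed level averaged 102 ± 100.5 FPKM in hearts labelled shRNA (SD, n = 4) and 52.6 ± 18.4 FPKM without replicate 8 (n = 3). It averaged 154 ± 40.0 FPKM in control-virus mutants and 163 ± 32.1 FPKM in untreated mutants, against 57.6 ± 5.57 FPKM in wild type (n = 3 each). For 9 such shares, sums and ratios, 54 group differences were tested by two-sided exact permutation over libraries, and 27 more without replicate 8. The smallest p these tests allow is 0.1 for 3 against 3 hearts and 0.0571 for 4 against 3, so none could pass, and after adjustment the smallest p was 0.181 with all libraries and 0.169 without replicate 8.

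**Figure D2:**
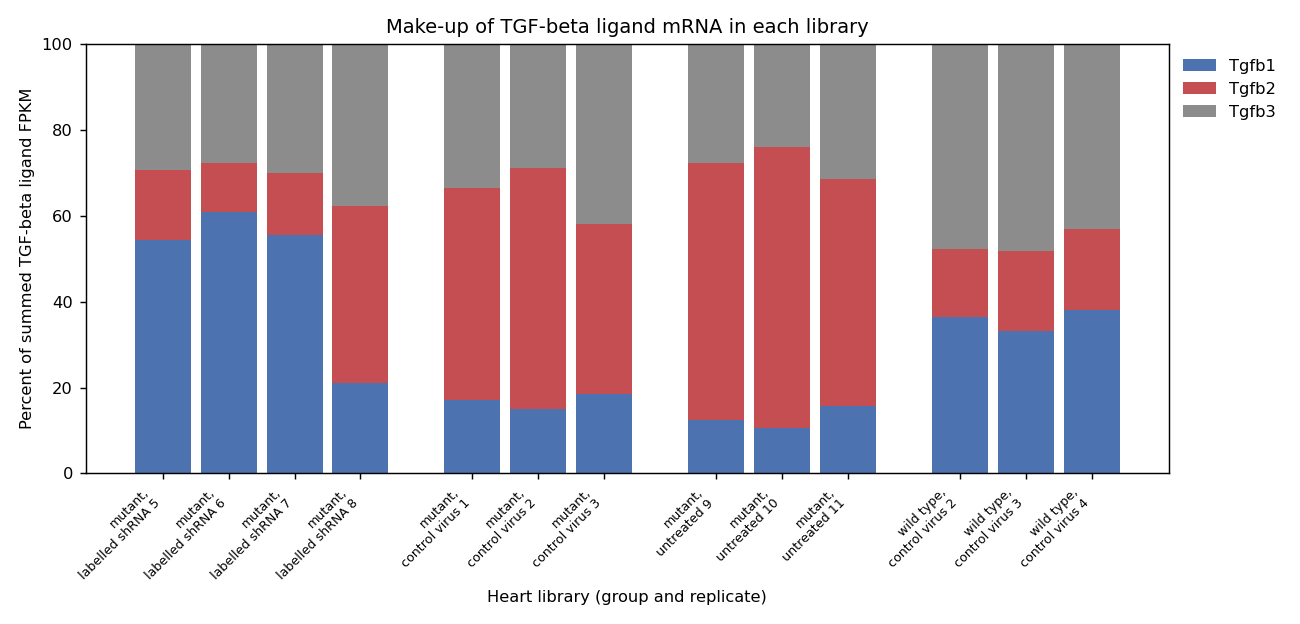
Percent of the summed FPKM of Tgfb1, Tgfb2 and Tgfb3 contributed by each gene, with 1 stacked bar per heart library. Tgfb2 made up 39.7% to 65.5% in the 6 mutant hearts without shRNA and in shRNA replicate 8, and 11.5% to 19.0% in the other hearts labelled shRNA and the wild-type hearts.

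Inhba codes for the beta A subunit, of which activin A is the dimer. It was 0.963, 0.243, 0.809 and 3.13 FPKM in shRNA replicates 5 to 8. It was 3.96, 5.56 and 2.86 FPKM in control-virus mutants and 6.94, 4.09 and 4.78 FPKM in untreated mutants, against 0.840, 0.605 and 1.23 FPKM in wild type. All mutant hearts without shRNA lay above wild type, and the 4 hearts labelled shRNA lay below every untreated mutant, with replicate 8 within the range of the control-virus mutants. The log2 difference was 1.42 ± 0.37 in control-virus mutants over wild type and 1.72 ± 0.37 in untreated mutants over wild type (limma adjusted p = 0.0234 and 0.00423). It was -1.28 ± 0.34 in hearts labelled shRNA over control-virus mutants and -1.58 ± 0.34 over untreated mutants (limma adjusted p = 0.00966 and 0.00135). Without replicate 8 these differences of Inhba were -1.61 ± 0.26 and -1.91 ± 0.26 (adjusted p = 3.39e-05 and 2.55e-06). At these low levels the added 1 FPKM makes the log2 difference smaller than that of the FPKM themselves. Inhba averaged 0.891 FPKM in wild type, under the 1 FPKM that the filter asks of the mean over all 13 libraries. It met the filter largely through the hearts in which it was then called higher. With no filter on low values, its call in control-virus mutants over wild type was lost.

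Inhbb, the gene of the beta B subunit, was 1.08, 2.90, 2.204 and 2.64 FPKM in hearts labelled shRNA, 1.91, 3.52 and 2.16 FPKM in control-virus mutants and 4.73, 1.92 and 2.22 FPKM in untreated mutants, against 1.56, 1.61 and 1.13 FPKM in wild type. The mutants without shRNA lay above wild type and overlapped the hearts labelled shRNA. It passed in no comparison as deposited (0.64 ± 0.32 on the log2 scale in untreated mutants over wild type, limma adjusted p = 0.163). With libraries aligned, it was higher in control-virus mutants than in wild type by 0.61 (limma adjusted p = 0.0495), higher in untreated mutants than in wild type by 0.91 (adjusted p = 0.0139) and lower in hearts labelled shRNA than in untreated mutants (log2 difference -0.80, adjusted p = 0.0137). Inhba made up 47.1%, 7.75%, 26.8% and 54.3% of the summed FPKM of both subunits in shRNA replicates 5 to 8. Its share was 57.0% to 67.5% in control-virus mutants and 59.5% to 68.3% in untreated mutants, against 27.3% to 52.0% in wild type.

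Ltbp2 codes for a matrix protein of the latent TGF-beta binding protein family, which associates with elastic fibres and, unlike its relatives, does not bind latent TGF-beta itself. It was 0.553, 0.791, 0.654 and 26.9 FPKM in shRNA replicates 5 to 8. It was 17.7, 12.2 and 8.11 FPKM in control-virus mutants and 12.1, 6.81 and 9.01 FPKM in untreated mutants, against 1.82, 3.38 and 0.680 FPKM in wild type. Ltbp2 was thus low in every wild-type heart and in 3 hearts labelled shRNA, and shRNA replicate 8 had the highest value of all 13. As deposited and with all libraries, Ltbp2 was called only for hearts labelled shRNA over control-virus mutants (log2 difference -1.96 ± 0.71, limma adjusted p = 0.0415), and 2.25 ± 0.76 in control-virus mutants over wild type missed it (adjusted p = 0.0703). Without replicate 8 both passed, at 6.27e-06 for control-virus mutants over wild type and at 4.34e-08 for hearts labelled shRNA over control-virus mutants, where the limma difference was -2.98 ± 0.30 on the log2 scale. Without that library untreated mutants were also higher than wild type, by 1.87 ± 0.30 (limma adjusted p = 5.57e-05). With libraries aligned and replicate 8 kept, Ltbp2 passed in control-virus mutants over wild type (2.38 ± 0.75, limma adjusted p = 0.0382), in untreated mutants over wild type (2.21 ± 0.75, adjusted p = 0.0471) and in hearts labelled shRNA over untreated mutants (-2.17 ± 0.70, adjusted p = 0.0362). Ltbp2 was a small part of its family: it made up 2.49% to 4.26% of the summed FPKM of Ltbp1 to Ltbp4 in control-virus mutants and 0.245% to 1.33% in wild type.

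Of the receptors, Tgfbr1, the type I receptor kinase, differed, and Tgfbr2, the type II receptor that binds the ligand, passed in no comparison as deposited. Tgfbr1 was 12.1, 16.3, 14.8 and 36.7 FPKM in shRNA replicates 5 to 8. It was 19.0, 25.7 and 17.7 FPKM in control-virus mutants and 27.8, 26.5 and 16.6 FPKM in untreated mutants, against 10.2, 11.6 and 12.1 FPKM in wild type. Every mutant heart, hearts labelled shRNA included, lay above the wild-type range, by a small margin in shRNA replicate 5. Tgfbr1 was higher in untreated mutants than in wild type by 0.97 ± 0.33 on the log2 scale (limma adjusted p = 0.0429), while 0.81 ± 0.33 in control-virus mutants missed the threshold (adjusted p = 0.124). Without shRNA replicate 8 both passed (limma adjusted p = 0.00291 for untreated and 0.0141 for control-virus mutants), and hearts labelled shRNA were lower than untreated mutants by 0.65 ± 0.23 (log2 difference -0.65, adjusted p = 0.0227). With libraries aligned and all of them kept, Tgfbr1 was higher in control-virus mutants than in wild type by 0.95 ± 0.21 (limma adjusted p = 0.0134), and lower in hearts labelled shRNA than in control-virus mutants (log2 difference -0.65 ± 0.20, adjusted p = 0.0339) and than in untreated mutants (-1.03 ± 0.20, adjusted p = 0.00565). Tgfbr2 was 33.9, 51.1, 51.5 and 93.1 FPKM in hearts labelled shRNA, 48.0, 58.2 and 40.2 FPKM in control-virus mutants and 52.7, 36.2 and 37.5 FPKM in untreated mutants, against 33.6, 41.4 and 47.9 FPKM in wild type. These ranges overlapped. With libraries aligned, Tgfbr2 was higher in untreated mutants than in wild type by 0.41 on the log2 scale (limma adjusted p = 0.0480). With alignment and without replicate 8 it also passed in control-virus mutants over wild type (0.40, limma adjusted p = 0.00543) and in hearts labelled shRNA over control-virus and over untreated mutants (-0.47 and -0.49, adjusted p = 0.00125 and 0.000989). The ratio of Tgfbr1 to Tgfbr2 was 0.288 to 0.394 in hearts labelled shRNA, 0.396 to 0.442 in control-virus mutants and 0.443 to 0.731 in untreated mutants, against 0.253 to 0.304 in wild type. The mutants without shRNA did not overlap wild type in this ratio, and the hearts labelled shRNA overlapped wild type only.

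Smad7, the inhibitor that TGF-beta induces against its own type I receptor, did not pass in any comparison as deposited. It was 8.57, 14.3, 18.9 and 31.2 FPKM in shRNA replicates 5 to 8. It was 11.1, 13.96 and 14.04 FPKM in control-virus mutants and 16.5, 9.59 and 12.4 FPKM in untreated mutants, against 14.5, 16.4 and 12.8 FPKM in wild type. All 4 groups overlapped, and the log2 difference was -0.15 ± 0.34 in control-virus mutants over wild type (limma adjusted p = 0.827). With libraries aligned and replicate 8 left out, it was lower in hearts labelled shRNA than in untreated mutants (log2 difference -0.49, limma adjusted p = 0.0442). Smad7 FPKM per Tgfbr1 FPKM was 0.707 to 1.28 in hearts labelled shRNA, 0.546 to 0.788 in control-virus mutants and 0.362 to 0.744 in untreated mutants, against 1.06 to 1.42 in wild type. Wild-type hearts lay above all mutant hearts without shRNA in this ratio.

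Ctgf had the highest level of the 10 genes in all 13 libraries. It was 51.9, 136, 121 and 1042 FPKM in shRNA replicates 5 to 8. It was 1006, 1119 and 554 FPKM in control-virus mutants and 1040.2, 1021 and 881 FPKM in untreated mutants, against 58.5, 119.7 and 78.8 FPKM in wild type. No mutant heart without shRNA came near a wild-type heart. shRNA replicate 5 lay below the wild-type range and replicates 6 and 7 above it, by a small margin in replicate 7. The log2 difference was 3.36 ± 0.68 in control-virus mutants and 3.56 ± 0.68 in untreated mutants over wild type (limma adjusted p = 0.00897 and 0.00247). It was -2.30 ± 0.64 in hearts labelled shRNA over control-virus mutants and -2.49 ± 0.64 over untreated mutants (limma adjusted p = 0.0116 and 0.00403). Without shRNA replicate 8 these differences of Ctgf were -3.16 ± 0.32 and -3.35 ± 0.32. Of the summed FPKM of the 6 CCN genes (Ctgf, Cyr61, Nov, Wisp1, Wisp2 and Wisp3), Ctgf made up 32.3%, 50.4%, 49.1% and 80.3% in shRNA replicates 5 to 8. Its share was 82.9% to 87.0% in control-virus mutants and 82.9% to 87.8% in untreated mutants, against 42.7% to 52.4% in wild type. Wisp3 missed the filter on low values, and as deposited the other 4 CCN genes passed neither in control-virus mutants nor in untreated mutants over wild type by limma, with 1 of them at an unadjusted p under 0.05 in each. Of all genes 2.15% and 1.54% were called higher in these comparisons, and 7.35% and 19.2% lower. An unadjusted p under 0.05 was found for 3332 and 4479 of all 12980 genes. Without replicate 8, Wisp2 was higher in control-virus mutants than in wild type by 1.30 (limma adjusted p = 0.00298) and Cyr61 was higher in untreated mutants than in wild type by 0.82 (adjusted p = 0.0255). On aligned values of all libraries, Wisp2 and Cyr61 both passed in control-virus mutants over wild type (adjusted p = 0.0236 and 0.0433) and Cyr61 in untreated mutants (adjusted p = 0.00917).

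Counted together, Tgfb2, Inhba and Ctgf were higher in control-virus mutants than in wild type, 3 of 10 genes, and 2.15% of all 12980 genes were called higher there. In untreated mutants over wild type 4 of 10 were higher, Tgfbr1 being the additional gene, against 1.54% of all genes. In hearts labelled shRNA over control-virus mutants 4 of 10 were lower (Tgfb2, Inhba, Ltbp2 and Ctgf), against 1.66% of all genes, and in hearts labelled shRNA over untreated mutants 3 of 10 were lower (Tgfb2, Inhba and Ctgf), against 1.21%. The median log2 difference of the 10 genes was 0.87 in control-virus mutants over wild type and -0.63 in hearts labelled shRNA over control-virus mutants, and that of all genes tested was -0.14 and 0.47. The comparisons of hearts labelled shRNA and of wild type with the same mutants share those mutant libraries. Without shRNA replicate 8, 6 of 10 were higher in control-virus mutants and 6 of 10 in untreated mutants than in wild type, against 8.49% and 5.22% of all genes. Without that library 5 and 6 of 10 were lower in hearts labelled shRNA than in control-virus and in untreated mutants, against 8.94% and 6.22% of all genes.

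With libraries aligned on their medians, 6 of 10 were higher in control-virus mutants and 7 of 10 in untreated mutants than in wild type, where 12.6% and 12% of all genes were. In hearts labelled shRNA 6 of 10 were then lower than in control-virus mutants and 7 of 10 lower than in untreated mutants, against 12.2% and 13.1% of all genes. With alignment and without shRNA replicate 8, the counts were 9 and 8 of 10 higher than in wild type (19.8% and 18.9% of all genes) and 7 and 9 of 10 lower in hearts labelled shRNA (23.8% and 24.1% of all genes). With sex as a covariate 0 of 10 passed by limma in control-virus mutants over wild type (0.971% of all genes called in either direction) and 0 of 10 in hearts labelled shRNA over control-virus mutants (20.2%), while 5 passed in untreated mutants over wild type (21.5%). With sex as a covariate and replicate 8 left out, 6, 5 and 6 passed in these 3 comparisons, against 10.3%, 14.5% and 29% of all genes. In that fit the sex term came from untreated mutants and wild type alone, because the other groups were then all male or all female. The 5 calls in hearts labelled shRNA over control-virus mutants therefore do not separate sex from treatment. With replicate 8 kept, the sex term also rests on that library, the only female with its label. Leaving out control-virus mutant 1 or 2 or wild-type replicate 2, 3 or 4 left 1 of 10 called in control-virus mutants over wild type, where 1.38%, 7.77%, 2.65%, 2.53% and 2.84% of all genes were called in either direction. Leaving out control-virus mutant 1 left 2 of 10 called in hearts labelled shRNA over control-virus mutants, against 18% of all genes. In hearts labelled shRNA over untreated mutants, 5 of 10 were called without shRNA replicate 5, against 69.9% of all genes.

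**Figure D3:**
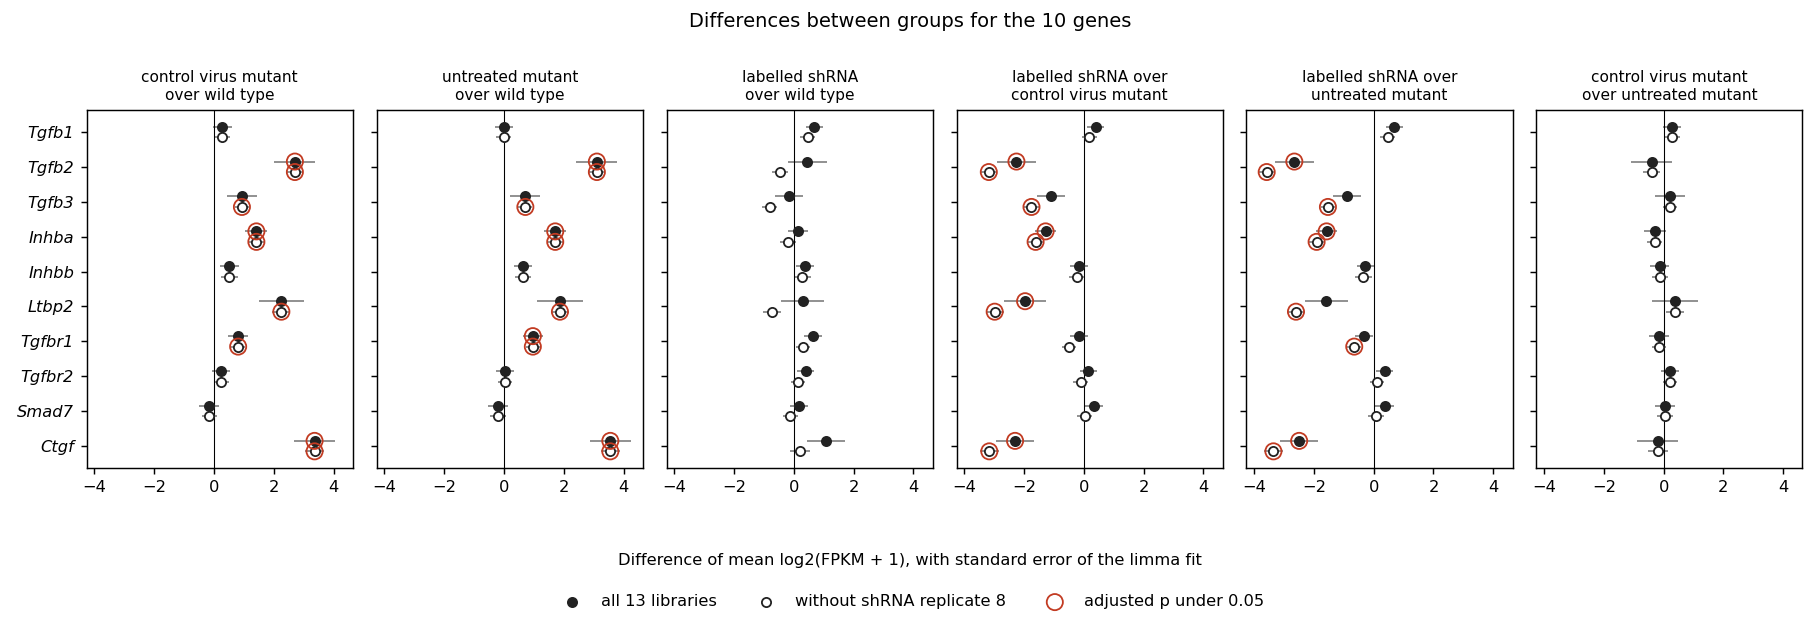
Difference of mean log2(FPKM + 1) with its standard error for each of the 10 genes in the 6 comparisons, from the limma fit with all 13 libraries (filled) and without shRNA replicate 8 (open), with a red ring where the adjusted p was under 0.05. With all libraries 3 and 4 genes were called higher in control-virus and untreated mutants than in wild type, and 0 of 10 between hearts labelled shRNA and wild-type hearts.

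Between hearts labelled shRNA and wild-type hearts 0 of 10 genes passed in either direction by limma with all libraries (0.108% of all genes called). Without shRNA replicate 8, 0 of 10 passed too (1.68%). In each fit 2 of 10 had an unadjusted p under 0.05, as did 2026 and 1875 of all 12980 genes. With libraries aligned 0 of 10 passed (0.0847% of all genes). With alignment and without replicate 8, 1 of 10 did, against 5.62% of all genes: Tgfb3 was lower in hearts labelled shRNA by 1.02 on the log2 scale (log2 difference -1.02, limma adjusted p = 0.000308). As deposited and without replicate 8, Tgfb3 was also the member with the smallest p, at a log2 difference of -0.81 ± 0.24 (adjusted p = 0.0864). The standard errors without replicate 8 ran from 0.23 (Tgfbr1) to 0.32 (Ctgf), and the differences ran from -0.81 (Tgfb3) to 0.47 (Tgfb1). Missing the threshold does not show that hearts labelled shRNA and wild-type hearts had the same levels.

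Between control-virus and untreated mutants, 0 of 10 genes passed by limma with all libraries (0% of all genes), without replicate 8 (0.0539%), with libraries aligned (0%) or with both (0.0462%). Of the 10 genes, 0 had an unadjusted p under 0.05 in the first 3 of these fits and 3 in the last. In the same order, 572, 1306, 1296 and 2202 of all 12980 genes had one. As deposited, the largest of these differences were -0.40 ± 0.69 for Tgfb2 and 0.38 ± 0.76 for Ltbp2 on the log2 scale. With libraries aligned and all of them kept, they were -0.63 ± 0.65 for Tgfb2, -0.50 ± 0.27 for Inhba and -0.42 ± 0.64 for Ctgf, and Ltbp2 was at 0.17 ± 0.75.

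Summed markers of several cell types, in FPKM as deposited, differed between the groups, while those of others overlapped. The sums were not aligned, so they carry the scale of each library. The median log2 shift was highest in shRNA replicate 8, at 0.80, and its sums are raised by that scale. The summed FPKM of 6 macrophage markers was 237 to 1848 in hearts labelled shRNA (237 to 479 without replicate 8), 747 to 1292 in control-virus mutants and 583 to 736 in untreated mutants, against 281 to 311 in wild type. That of 6 fibroblast markers was 885 to 3498 in hearts labelled shRNA (885 to 1718 without replicate 8), 1682 to 2710 in control-virus mutants and 1511 to 2078 in untreated mutants, against 842 to 1207 in wild type. The 6 cardiomyocyte markers summed to 65794 to 117826 FPKM in hearts labelled shRNA (67155 to 117826 without replicate 8). Their sum was 33980 to 47795 in control-virus mutants and 27300 to 38659 in untreated mutants, against 54866 to 62053 in wild type. The cardiomyocyte, macrophage and fibroblast markers were above 0 in all 13 libraries. The 6 endothelial markers summed to 426 to 671 FPKM in hearts labelled shRNA (426 to 600 without replicate 8). Their sum was 222 to 302 in control-virus mutants and 223 to 282 in untreated mutants, against 374 to 422 in wild type. The 6 markers of smooth muscle and pericytes summed to 339 to 457 FPKM in hearts labelled shRNA (339 to 450 without replicate 8). They summed to 166 to 226 in control-virus mutants and 181 to 222 in untreated mutants, against 305 to 361 in wild type. In the same order, 5 lymphocyte markers summed to 1.25 to 13.6, 4.66 to 10.3 and 2.78 to 5.36 FPKM, against 1.57 to 2.72 in wild type. The 5 platelet and megakaryocyte markers summed to 39.1 to 123, 38.3 to 73.8 and 35.5 to 47.0 FPKM, against 42.1 to 54.1, and all groups overlapped. So did the 5 epicardial and mesothelial markers, at 7.24 to 41.6, 5.09 to 21.7 and 5.53 to 13.5 FPKM, against 4.68 to 8.24. The part of these cell types in the differences of the 10 genes was not tested.

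Of 13 genes known to be raised by TGF-beta, 7 were higher and 1 lower in control-virus mutants than in wild type, with a median log2 difference of 1.65, and 2.15% of all genes were higher and 7.35% lower there. The 4 with the smallest p were Col3a1 and Col1a1, which code for the fibrillar collagens, Timp1, an inhibitor of matrix metalloproteinases, and Postn, a matricellular protein of activated fibroblasts. Timp1 averaged 82.3 ± 64.0 FPKM in control-virus mutants and 3.40 ± 2.46 FPKM in wild type (SD, n = 3 each), a log2 difference of 4.09 (limma adjusted p = 0.00980). Col3a1 averaged 409 ± 100.2 FPKM in control-virus mutants and 62.0 ± 11.9 FPKM in wild type, a log2 difference of 2.69 (limma adjusted p = 0.00453). Postn was higher by 3.20 and Col1a1 by 2.30 on the log2 scale (limma adjusted p = 0.0147 and 0.0122). In untreated mutants over wild type 4 of the 13 were higher and 1 lower, against 1.54% and 19.2% of all genes. In hearts labelled shRNA over control-virus mutants 6 of the 13 were lower and 1 higher, with a median log2 difference of -1.04, and 10 were lower and 1 higher without shRNA replicate 8. Of all genes 1.66% were lower and 33.4% higher there, and 8.94% and 30.4% without that library. The list holds genes that cardiac fibroblasts express as a rule, and their summed markers are given above.

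Genes of latency and activation did not move in 1 direction. In control-virus mutants over wild type 2 of 10 were higher and 2 lower, against 2.15% and 7.35% of all genes. Thbs1, which codes for thrombospondin-1, an activator of latent TGF-beta, averaged 6.81 ± 6.65 FPKM in hearts labelled shRNA (SD, n = 4) and 3.48 ± 0.27 FPKM without replicate 8. It averaged 21.1 ± 6.23 FPKM in control-virus mutants and 17.3 ± 6.25 FPKM in untreated mutants, against 2.68 ± 0.59 FPKM in wild type (n = 3 each). It was higher by 2.56 on the log2 scale in control-virus mutants than in wild type (limma adjusted p = 0.00453) and fell by 1.77 in hearts labelled shRNA against control-virus mutants (adjusted p = 0.00404), or by 2.26 without replicate 8. Fbn1, the gene of the microfibril protein fibrillin-1, was also higher in control-virus mutants than in wild type, by 1.62 (limma adjusted p = 0.0142). Ltbp1, which does bind latent TGF-beta, went the other way from Ltbp2: it averaged 28.5 ± 10.2 FPKM in hearts labelled shRNA (n = 4) and 33.1 ± 5.32 FPKM without replicate 8, 10.5 ± 1.51 FPKM in control-virus mutants and 10.0 ± 1.74 FPKM in untreated mutants, against 22.8 ± 1.57 FPKM in wild type. Its log2 difference was -1.05 in control-virus mutants over wild type and 1.28 in hearts labelled shRNA over control-virus mutants (limma adjusted p = 0.0302 and 0.00237). Without replicate 8 the second of these was 1.56, and with libraries aligned both missed the threshold (-0.91 and 0.80, limma adjusted p = 0.0650 and 0.0782). Ltbp1 also stands in the list of genes raised by TGF-beta and is the 1 of the 13 that was lower there as deposited. Itgb6, the beta chain of an integrin that activates latent TGF-beta, was lower in control-virus mutants than in wild type, with a log2 difference of -0.90 (limma adjusted p = 0.0310), and higher in hearts labelled shRNA than in control-virus mutants by 1.01 (adjusted p = 0.00396). Without replicate 8 the second difference was 1.08, and with libraries aligned it was 0.54 and missed the threshold (limma adjusted p = 0.0827).

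Of 9 other receptors of the superfamily 1 was lower and 0 were higher in control-virus mutants than in wild type, against 7.35% and 2.15% of all genes. The receptor called lower was Tgfbr3, the co-receptor betaglycan, with 17.8 ± 2.82 FPKM in control-virus mutants against 32.1 ± 1.35 FPKM in wild type (log2 difference -0.83, limma adjusted p = 0.0308). In hearts labelled shRNA over control-virus mutants 5 of these 9 were higher, 9 of 9 had a positive log2 difference, and their median was 0.69, beside a median of 0.47 and 33.4% called higher over all genes tested. Without replicate 8, 4 of the 9 were higher there, against 30.4% of all genes. With libraries aligned 1 of the 9 was higher, against 11.9% of all genes, and 6 of 9 had a positive log2 difference. Of 4 relatives and antagonists of activin that were tested, Fstl1, a secreted follistatin-like protein, was higher in control-virus mutants than in wild type by 1.74 (limma adjusted p = 0.0306). Fstl3, which binds activin and was singled out after its values were seen, fell in hearts labelled shRNA by 2.18 against control-virus mutants (limma adjusted p = 0.0140). Without replicate 8 this difference of Fstl3 was -3.05. It averaged 20.3 ± 30.5 FPKM in hearts labelled shRNA (5.12 ± 1.82 FPKM without replicate 8), 51.2 ± 22.98 FPKM in control-virus mutants and 39.8 ± 13.1 FPKM in untreated mutants, against 12.03 ± 3.30 FPKM in wild type. In control-virus mutants over wild type, 0 of 7 other Smad genes, 0 of 8 inhibitors and modulators inside the cell or at the membrane, 0 of 9 BMP ligands, antagonists and Id targets, 0 of 3 small proteoglycans and 0 of 6 YAP and SRF cofactor targets shared with Ctgf passed in either direction by limma. An unadjusted p under 0.05 was found for 0, 2, 1, 3 and 1 of these genes, and for 3332 of all 12980 genes. Of all genes 2.15% were called higher and 7.35% lower there, so lists this short may hold none at that share. Without shRNA replicate 8 the numbers higher there were 0 Smad genes, 3 inhibitors and modulators, 1 of the BMP list, 3 small proteoglycans and 1 YAP and SRF target, against 8.49% of all genes. On aligned values of all libraries they were 1, 2, 1, 2 and 4, against 12.6% of all genes.

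**Figure D4:**
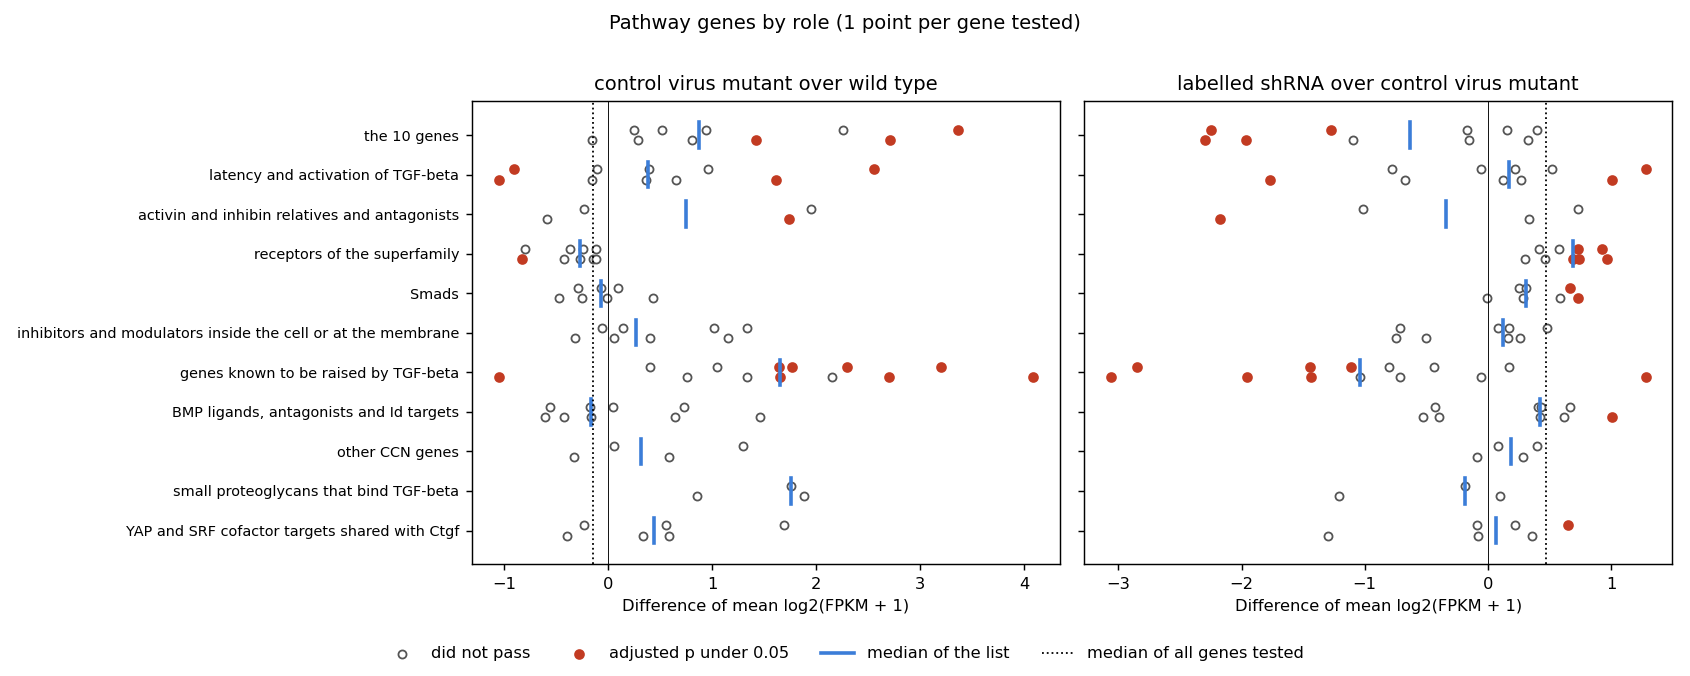
Difference of mean log2(FPKM + 1) for each tested gene of the 10 genes and of 10 lists of related genes, for control-virus mutants over wild type and for hearts labelled shRNA over control-virus mutants, with red points for genes at an adjusted p under 0.05, a blue bar at the median of a list and a dotted line at the median of all genes tested. Genes known to be raised by TGF-beta had a median of 1.65 in control-virus mutants over wild type and -1.04 in hearts labelled shRNA over control-virus mutants.

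The genes most like each of the 10 over the 13 libraries, by Pearson r of log2(FPKM + 1), are given as a description, because the libraries share their scale and fall into separate sets. Ctgf was most like Rcan1, a regulator of calcineurin (r = 0.990), and 2200002D01Rik was also among its 3 most like genes (r = 0.986). Tgfb2 was most like Enah, an actin regulator (r = 0.989), Fam26e (r = 0.988) and Leprel1, a collagen prolyl hydroxylase (r = 0.987). Fam26e was also among the 3 most like Inhba (r = 0.952), after Adamts20 (r = 0.963) and Ildr2 (r = 0.956). Ltbp2 was most like the matrix gene Cilp (r = 0.978), followed by Dfna5 (r = 0.978) and Klrg2 (r = 0.975). Tgfb3 was most like Srgap3 (r = 0.980) and Rusc2 (r = 0.979), and Tgfbr1 was most like Atp6v1h (r = 0.969), Slc30a4 (r = 0.967) and Baiap2l1 (r = 0.965). Papss1 (r = 0.980) and Lysmd2 (r = 0.978) were among the 3 genes most like Tgfb1. Tgfbr2 was most like Gskip (r = 0.981), Sltm (r = 0.979) and Zeb1 (r = 0.978), and Smad7 most like H6pd (r = 0.955), Zbtb21 (r = 0.949) and Zmiz1 (r = 0.945). Inhbb had the lowest likeness as deposited, with Pdlim3 (r = 0.897), Slc38a4 (r = 0.890) and Masp1 (r = 0.866). On aligned values the r with these genes was 0.942, 0.909 and 0.898. Smad7 was then lowest, at 0.803, 0.802 and 0.825 with the genes named for it, and Tgfb1 with Lysmd2 was at 0.848.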

How the data were processed

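PolyA RNA of 13 mouse hearts was used, and the small RNA libraries of the series were not used here. Per the labels, polyA libraries were read as 100-base pairs. The submitters' processing notes name FastQC 0.11.2, STAR 2.40, Cufflinks 2.2.1, Cuffdiff and mouse build mm9. The authors deposited FPKM per gene and library. No source used here gives the annotation, the filters or how libraries were scaled, so depth and counting error are unknown. A library was taken as 1 heart. The labels do not say whether hearts came from separate litters, so p-values measure only the spread between these libraries, which may be technical.

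Genes averaging at least 1 FPKM over all 13 libraries were analysed as log2(FPKM + 1). The limma package (version 3.58.1, R 4.3.3) fitted one linear model to the 4 groups with a trend in eBayes. Tests were two-sided and adjusted by Benjamini-Hochberg over all genes of a comparison, in each of 6 comparisons. The fit was tested on simulated data. Aligned values were shifted by the library's median log2 difference over the 13875 genes above 0 in every library. Alternatives were pseudocounts, filters, scalings, sex, the compared groups alone, a replicate block and each library left out. Alignment together with leaving out shRNA replicate 8 was added after seeing the data. The 10 genes, the gene lists and the tests were chosen with earlier results of these data known. Apart from the 10 genes, those named are up to 4 per list that passed in control-virus mutants over wild type with the smallest p, any that passed against most of its list, and the 3 most like each gene, some of which are not reported here. Promoter sequences are from RefSeq, GRCm38.p6, matched by symbol.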

Additional observations from a re-analysis of the deposited data

Results flagged for a closer look

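In groups of 4 to 10 hearts, a value was marked when its gap to the nearest other heart, as a share of the group's range, was above Dixon's 95% critical value for 4 hearts. Chance marks about 1 in 20 groups, and only the group labelled shRNA, with 4 hearts, was large enough. All marks fell on shRNA replicate 8. It had 104 FPKM of Tgfb2, 94.6 of Tgfb3, 1042 of Ctgf, 26.9 of Ltbp2 and 36.7 of Tgfbr1, each above the other 3 hearts with that label. Its Tgfb2 share of TGF-beta ligand FPKM was 41.3%, its Tgfb1 share 21.1%, its ligand sum 251 FPKM and its Ltbp2 share of Ltbp1 to Ltbp4 4.16%. The same library was the only female of its group by Ddx3y, was listed at 0 in the row hMyl2 and had the highest median shift. The part of each of these in its values was not tested.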

How the results depend on the processing

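The number of the 10 genes called moved with scaling, sex and shRNA replicate 8, and all 307 values of the 14 calls over the alternatives kept their direction (264 called, 43 not). In control-virus mutants over wild type (3 as reported) it was 1 with no filter on low values, 6 with libraries aligned, 5 with quantile normalization, 6 with the compared groups only, 0 with sex as a covariate, 6 with sex and without shRNA replicate 8, 9 with alignment and without it, and 1 to 6 leaving out each library. In untreated mutants over wild type (4) it was 7 aligned, 7 by quantile normalization, 7 with the compared groups only, 8 aligned without replicate 8 and 3 to 6 leaving out each library. For hearts labelled shRNA over control-virus mutants (4) it was 2 with no filter, 0 with sex, 7 aligned without replicate 8 and 2 to 5 leaving out each library. For the same hearts over untreated mutants (3) it was 7 aligned, 8 by quantile normalization, 5 with sex, 6 with sex without replicate 8, 9 aligned without replicate 8 and 3 to 6 leaving out each library. It was 1 aligned without replicate 8 for hearts labelled shRNA over wild type (0). In control-virus over untreated mutants it was 0 by limma under every alternative run. The share of all genes called is not reported here for no filter, quantile normalization, the compared groups only or the replicate block. Nor is it for sex in hearts labelled shRNA over untreated mutants, or for most fits without a single library. Counts from those fits therefore cannot be set against all genes.

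The causes were not tested. Tgfb2 and Ctgf stayed called in untreated mutants over wild type and in hearts labelled shRNA over untreated mutants under all 22 alternatives. Inhba stayed called there in the 21 alternatives that tested it, since its mean lay under the stricter filter of 5 FPKM. Tgfbr1 in untreated mutants over wild type kept its call in 12 of 22 alternatives and Ltbp2 in hearts labelled shRNA over control-virus mutants in 9 of 22. The Ltbp2 call was lost without any 1 of 10 libraries (shRNA 5, 6 or 7, any control-virus or untreated mutant, or wild-type 2). Tgfbr1 lost its call without shRNA 6 or 7, control-virus mutant 1 or 3, untreated 9 or 10, or any wild-type heart. With the replicate block, 4 of 10 passed in control-virus mutants over wild type; their shared numbers 2 and 3 do not pair the hearts (correlations of deviations -0.20 and -0.11). The depth of the libraries is unknown, so low genes such as Inhba carry an unknown counting error.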
